A study of Mus musculus with 2 samples.

Results

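The Ifi200 genes of the mouse encode proteins of the PYHIN family and lie in a cluster on chromosome 1. A row of the deposited gene table was taken as a member if its symbol was Ifi202b, Ifi203, Mndal, LOC100044068 or LOC102641031, or if its protein description named an interferon-activable protein of the 200 series. This gave 8 of the 16906 rows: the 5 named symbols plus Ifi204, Ifi205 and Mnda, the last of which is called Ifi211 in RefSeq. The 5 symbols were chosen because they were lower in the knockout library, so their values between the libraries are a description and no test was made on them. Another 7 rows of the table belong to the same family but not to this selection, among them Aim2.

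RNA was measured by sequencing in luminal epithelial cells sorted from the mammary glands of C57BL/6 mice aged 8 weeks. The control library (Ctrl) had the genotype miR-200c/141-flox/flox, in which the cluster of 2 microRNAs is flanked by recombination sites. The knockout library (CKO) had the same floxed cluster together with K8-CreERT2 (K8-CreERT2;miR-200c/141-flox/flox), in which the keratin 8 promoter drives a Cre recombinase that tamoxifen activates. Mice of both genotypes received tamoxifen, with the interval given as 3 days in one field of the labels and as 4 weeks in another. Only CKO carried Cre, so effects of Cre itself and of the deletion cannot be told apart. There was 1 library per group, from about 20000 cells, and the labels do not say how many mice stood behind it, so no difference given here has a replicate check. The table used here has no row for either microRNA, and the deletion was not analysed.

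PYHIN proteins usually join a pyrin domain, which binds other pyrin domains, to a HIN domain, which binds double-stranded DNA. Aim2 senses DNA in the cytosol and assembles an inflammasome, p204 (the product of Ifi204) is reported as a DNA sensor that signals through STING, and p202 (the product of Ifi202b) lacks a pyrin domain and restrains Aim2. Many of these genes are induced by interferons, and transcript levels of Ifi202b are known to differ widely between inbred mouse strains. Whether Ctrl or CKO had the Ifi202b level usual for the strain on the labels was not tested. A value called lower in CKO therefore describes the contrast between the libraries and does not say which of them departed from that level.

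The members' promoters and the 2 microRNAs are shown first, since they set out what the genes share apart from their levels. RefSeq (GRCm38.p6, the patch release of the mm10 assembly) held a window from 250 bases before to 50 after the start for 5 of the 8 members. The windows were searched on both strands for GAAANNGAAA, the core of the element through which interferon-activated factors bind. It was found in 4 of the 5 members with a window and in 9 of the 12 family genes with one, against 1079 of all 27025 genes (3.99%). Counted by windows, of which a gene can have several, it was in 1131 of 32851 (3.44%). The 4 sequences below are the 150 bases before the start, 5′ to 3′ on the minus strand, with each match in capitals. Ifi203 and Mndal stand for near-identical promoters of genes that were lower in CKO, Ifi205 for a match in a gene that was not, and Ifi202b for the absence of a match in a gene that was much lower.
Ifi203, chr1:173942493-173942642: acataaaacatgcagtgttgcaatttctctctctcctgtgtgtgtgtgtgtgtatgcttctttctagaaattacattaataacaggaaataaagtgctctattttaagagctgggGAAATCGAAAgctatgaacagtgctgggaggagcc
Mndal, chr1:173880188-173880337: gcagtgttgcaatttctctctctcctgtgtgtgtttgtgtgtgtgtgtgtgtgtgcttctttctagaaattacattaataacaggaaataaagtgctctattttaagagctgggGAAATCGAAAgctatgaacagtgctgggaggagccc
Ifi205, chr1:174031756-174031905: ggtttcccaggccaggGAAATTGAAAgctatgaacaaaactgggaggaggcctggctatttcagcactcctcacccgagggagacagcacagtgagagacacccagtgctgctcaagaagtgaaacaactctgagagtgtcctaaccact
Ifi202b, chr1:173982845-173982994: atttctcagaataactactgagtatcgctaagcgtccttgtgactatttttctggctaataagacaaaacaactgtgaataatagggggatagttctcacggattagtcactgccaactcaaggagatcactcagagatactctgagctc

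The match began 35 bases before the start of Ifi203, 36 before that of Mndal, 37 before that of Mnda (Ifi211) and 134 before that of Ifi205, whose window held a further match after the start. Ifi203 and Mndal each had another window. That of Ifi203 held no match, and that of Mndal held a different one, 54 bases before its start. The whole windows of Ifi203 and Mndal with the matches at 35 and 36 bases were identical at 282 of 311 aligned positions (90.7%). The windows of Ifi202b and Ifi203 were identical at 48.0%. A longer form, GGAAATCGAAAG, is the match of Ifi203 with 1 base on each side and was chosen after the sequences had been seen. It stood in 6 of the 32851 windows, and all 6 belonged to PYHIN genes, including Ifi203 and Mndal. The matches are a description of these windows and not of bound sites, and the windows of Ifi202b, Aim2 and Ifi209 held no match to the core.

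The microRNAs targeted in CKO were searched for in the members' transcripts through their seeds, bases 2 to 8, printed in capitals. Both lie on the minus strand of chromosome 6 in GRCm38.p6, and their seeds differ, so each was searched separately.
mmu-miR-200c-3p, chr6:124718324-124718346: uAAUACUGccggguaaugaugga
mmu-miR-141-3p, chr6:124717917-124717938: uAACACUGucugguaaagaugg
A perfect seed match in the longest 3′ untranslated region of the GENCODE annotation was found in 1 of the 6 members that had one. That member was Ifi203, whose match to miR-200c-3p lay at chr1:173921349-173921355 on the minus strand (GRCm38), in exon 8 of 8.
Ifi203 site: aggtttacaatCAGTATTtacagtcacat
A match to either seed was present in 4528 of 16154 genes of the table (28.0%). The members' untranslated regions had a median length of 250 bases, against 1095 over those genes, and no match means only that the letters are not in these regions. The level of Ifi203 was lower in CKO, as given below, and whether the microRNA acts on it was not tested.

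The pair of rows described as Ifi202b had the highest levels of the family in Ctrl and almost none in CKO. LOC100044068 stood at 89.99 FPKM (reads of a gene divided by its transcript length and by the size of the library) in Ctrl and at the table's lowest entry of 0.01 in CKO. These values corresponded to about 2213 reads and 0 reads. With 3 reads allowed to a library with none, the level in CKO was 673-fold lower. The 95% exact conditional binomial interval of the log2 read ratio, CKO over Ctrl, ran up to -9.10. Ifi202b stood at 35.03 FPKM in Ctrl and 0.44 FPKM in CKO, about 793 and 9 reads. Its log2 FPKM ratio, CKO over Ctrl, was -6.31, with a 95% exact conditional binomial interval of the read ratio from -7.46 to -5.40. In Ctrl the level of LOC100044068 was above that of 95.6% of the table's genes and the level of Ifi202b above that of 86.4%. In CKO Ifi202b was above 24.3%.

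These 2 rows carry the same protein description, so reads that fit both could have been divided between them. Their sum does not depend on that division: it was 3006 reads in Ctrl and 9 in CKO, a log2 read ratio of -8.25 (-9.38 to -7.33), or 304.8-fold lower. The annotated Ifi202b transcript shared none of its stretches of 100 bases with the other annotated family transcripts. No transcript was used here for LOC100044068 or LOC102641031, so their overlap with the other genes was not analysed here.

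LOC102641031, described as encoding pyrin domain-containing protein 3, stood at 8.86 FPKM in Ctrl and 0.10 FPKM in CKO, about 369 and 4 reads. The log2 FPKM ratio was -6.47 (-8.28 to -5.03), close to that of Ifi202b and with an interval that overlapped it. A row outside the selection, Pydc3 (Ifi208), bears the symbol for this protein name and stood at 0.10 FPKM in Ctrl and 0.18 FPKM in CKO. Whether reads were divided between LOC102641031 and Pydc3 was not examined. By the order of its gene list, RefSeq assigns both LOC rows to chromosome 1 but holds them apart from the chromosome itself. Their positions there are 24601 to 51858 and 69234 to 91299, and whether these are on the same sequence was not examined. Together the LOC rows held 2582 reads in Ctrl and 4 in CKO. Whether both libraries carried the same version of the cluster was not tested. For these rows and the rest of the family, a low value can stand for little transcript or for a transcript unlike the reference sequence. A low value can also stand for a gene copy that the mice of that library did not carry. A further row assigned to chromosome 1 in this way, LOC100862473, was picked out after its values were seen. It stood at 0.92 and 0.01 FPKM, 26 reads against 0, or 7.91-fold lower with 3 reads allowed to CKO. The interval of its log2 read ratio ran up to -2.58. The remaining such row, Ren2, had 1 read in Ctrl and 0 in CKO. The table had 13 rows besides the members on sequences of this kind for any chromosome. In the library where they were higher, 7 of these reached 5 FPKM. Of the 7, 0 were 2-fold lower in CKO and 3 were 2-fold higher: LOC547349, LOC108167918 and H2-Q9. LOC547349 and H2-Q9 are described as class I histocompatibility genes. Of all 8870 genes that reached 5 FPKM, 0.349% were 2-fold lower and 0.654% 2-fold higher.

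Ifi203, Ifi204 and Mndal, which are placed on the chromosome itself, were lower in CKO by smaller factors. Ifi203, whose product is a nuclear PYHIN protein, stood at 8.27 FPKM in Ctrl and 0.95 FPKM in CKO, about 394 and 41 reads, a log2 FPKM ratio of -3.12 (-3.63 to -2.67). Ifi204, the gene of the sensor p204, stood at 4.06 FPKM in Ctrl and 0.45 FPKM in CKO, about 122 and 12 reads, a log2 FPKM ratio of -3.17 (-4.21 to -2.36). Mndal, named for its likeness to the human myeloid nuclear differentiation antigen, stood at 5.63 FPKM in Ctrl and 1.54 FPKM in CKO, about 205 and 51 reads, a log2 FPKM ratio of -1.87 (-2.35 to -1.43). Ifi203 and Ifi204 were lower by factors with overlapping intervals, 8.71-fold and 9.02-fold, and the interval of Mndal did not reach that of Ifi203 or Ifi204. The difference for Mndal was 3.66-fold. The intervals of all 3 lay above that of Ifi202b.

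Mnda (Ifi211) and Ifi205 were weakly expressed in both libraries. Mnda stood at 1.32 FPKM in Ctrl and 0.85 FPKM in CKO, about 40 and 24 reads, a log2 FPKM ratio of -0.64 (-1.40 to 0.16). Ifi205 stood at 0.48 and 0.74 FPKM, about 10 and 14 reads, a log2 FPKM ratio of 0.62 (-0.66 to 1.95). Both intervals, which rest on estimated reads, included no difference, though the deposited p-value of Mnda implied a log2 read ratio of -0.90. These rows are uncertain for another reason: 56.9% of the stretches of 100 bases in the annotated Ifi211 transcripts and 15.0% of those of Ifi205 also occur in another family transcript. The share was 10.7% for Ifi204, 5.89% for Mndal and 1.14% for Ifi203.

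**Figure D1:**
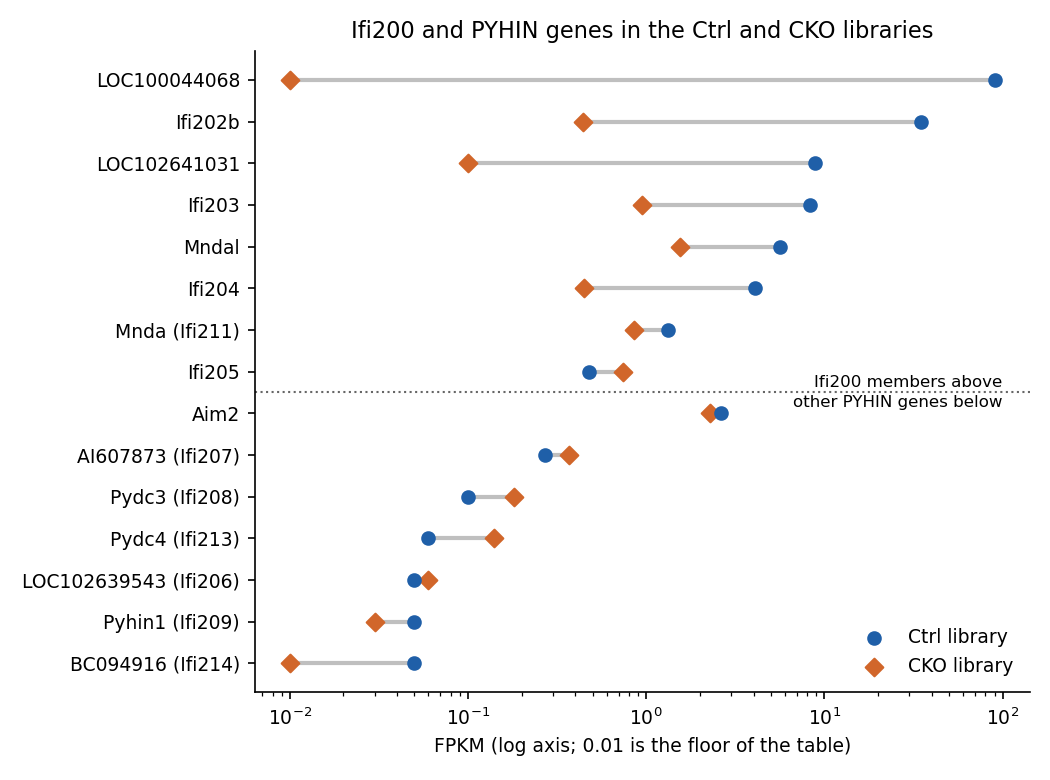
FPKM (horizontal log10 axis, with the table's floor at 0.01) of the 8 Ifi200 rows, above the dotted line, and of the 7 PYHIN rows outside the selection, below it. Blue circles are the Ctrl library, orange diamonds the CKO library and grey bars join the values of a row. LOC100044068, Ifi202b, LOC102641031, Ifi203, Ifi204 and Mndal were lower in CKO, from 89.99 against 0.01 FPKM for LOC100044068 to 5.63 against 1.54 FPKM for Mndal, while Mnda and Ifi205 lay close together in both libraries.

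The order of the levels differed between the libraries. In Ctrl it ran, per length, from LOC100044068 and Ifi202b through LOC102641031, Ifi203, Mndal and Ifi204 to Mnda and Ifi205. The only neighbours in that order whose 95% Poisson intervals overlapped were LOC102641031 (7.97 to 9.80 FPKM) and Ifi203 (7.48 to 9.13 FPKM). In CKO it ran from Mndal, Ifi203, Mnda and Ifi205 to Ifi204, Ifi202b, LOC102641031 and LOC100044068, and the intervals of all neighbours overlapped. LOC100044068 held 53.4% of the members' reads in Ctrl and none of them in CKO, where Mndal held the largest share, 32.9% of 155 reads.

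A row was counted as higher or lower among members if its higher value reached 5 FPKM and its log2(FPKM + 0.5) ratio reached 2-fold. Of the 8 members 5 passed the minimum. All 5 were lower and 0 higher in CKO, against 0.349% lower and 0.654% higher of the 8870 genes of the table that passed it. The members were chosen on this contrast, so nothing is read from that count. Mndal at 5.63 FPKM lay just inside the minimum and Ifi204 at 4.06 FPKM just outside. The median log2(FPKM + 0.5) ratio was -2.43 over the 8 members and -0.03 over all genes. LOC100044068 had the lowest ratio of all genes past the minimum, Ifi202b the third lowest, LOC102641031 the fifth and Ifi203 the sixth.

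In the authors' deposited table, 6 of the 8 members were called down and 0 up, where 0.639% of all 16906 genes were called down. The authors' test compares the reads of 1 library with those of the other and not the conditions. Its deposited false discovery rate was 0 for LOC100044068, 1.32e-200 for Ifi202b and 9.14e-96 for LOC102641031. In the authors' deposited table it was 6.13e-68 for Ifi203, 4.38e-19 for Ifi204 and 1.18e-18 for Mndal. Mnda and Ifi205, at 0.0547 and 0.518 in the authors' deposited table, were not called.

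Summed over the 8 members, estimated reads were 4146 in Ctrl and 155 in CKO, a log2 read ratio of -4.61 (-4.85 to -4.38), or 24.4-fold lower. This was 0.0329% of all reads in Ctrl and 0.00135% in CKO. The value leaned on LOC100044068, without which it was -3.51. The 6 members placed on chromosome 1 alone summed to 1564 and 151 reads, a log2 read ratio of -3.24 (-3.49 to -3.00). In sorted bulk cells, fewer cells that express these genes and less RNA per cell cannot be told apart.

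The family rows outside the selection were low in both libraries. Aim2, the inflammasome sensor, stood at 2.63 FPKM in Ctrl and 2.28 FPKM in CKO, about 105 and 83 reads, a log2 FPKM ratio of -0.21 (-0.64 to 0.22). The other 6 lay at or below 0.37 FPKM in both libraries: Ifi206 (listed as LOC102639543), Ifi207 (AI607873), Ifi208 (Pydc3), Ifi209 (Pyhin1), Ifi213 (Pydc4) and Ifi214 (BC094916). Ifi207, the highest of these, stood at 0.27 and 0.37 FPKM. The sum over the 7 rows was 126 reads in Ctrl and 108 in CKO, a log2 read ratio of -0.09 (-0.47 to 0.29). The interval of Aim2 did not reach that of any of the 6 members that were lower. For the neighbours and gene lists below, a gene was measured if its mean over both libraries reached 1 FPKM. It was higher or lower if its log2(FPKM + 0.5) ratio also reached 1.5-fold and the interval of its read ratio left out 1. Of the 8 family rows measured in this sense, 6 were lower and 0 higher, against 3.04% and 2.28% of 11667 genes, with the same caution about their choice.

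The family cluster spans chr1:173349547-174031755, 682.208 kb from Aim2 to Ifi205 (GRCm38.p6). Genes beside it were compared to see how far the difference reached along the chromosome. Within 1 Mb on either side the table had 14 rows from outside the family, of which 5 had the mean level asked for. Of these, 0 were lower and 1 was higher: Ackr1, which encodes an atypical chemokine receptor, at 2.74 FPKM in Ctrl and 4.76 FPKM in CKO, 40 and 63 reads. Tagln2, an actin-binding protein, stood at 469.21 and 576.88 FPKM, Igsf9 at 7.73 and 7.89 FPKM, Cfap45 at 5.12 and 4.29 FPKM and Pigm at 4.85 and 4.54 FPKM. The median log2(FPKM + 0.5) ratio of the 5 was 0.03, and the range was from -0.23 to 0.70. All 5 lie before Aim2. After Ifi205 no gene within 1 Mb was measured, the nearest row being Fmn2, which encodes a formin, at 0.15 and 0.01 FPKM, 12 reads against 0. Fmn2 was lower beyond counting error, with an interval of the log2 read ratio up to -1.34, though its log2(FPKM + 0.5) ratio was -0.35. Cadm3, at the Aim2 end and also not measured, was higher beyond counting error, at 4 and 13 reads. The nearest measured gene after Ifi205, farther away, was Fh1, which encodes the enzyme fumarate hydratase, at 40.92 FPKM in Ctrl and 39.42 FPKM in CKO. Within 5 Mb, 54 rows were measured, of which 3 were higher (Ackr1, Gm39701 and Olfml2b) and 4 lower (Dusp12, Gm16432, Opn3 and Uhmk1). Over all 11667 measured genes 2.28% were higher and 3.04% lower. On chromosome 1 outside the family, with these 54 included, 18 of 642 were higher and 21 lower. Both counts within 5 Mb are larger shares than these, and the excess was not tested. The lowest ratio among the 54 was -0.79, smaller in size than that of each of the 6 lower members. With no minimum level, 5 of the 97 rows within 5 Mb were higher and 6 lower, and the lowest ratio was -1.23 for Gm7068, at 18 reads in Ctrl and 0 in CKO. The other added one that was lower was Fcgr4, at 13 and 2 reads. The share over all genes with no minimum was not computed, so nothing is read from these counts.

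**Figure D2:**
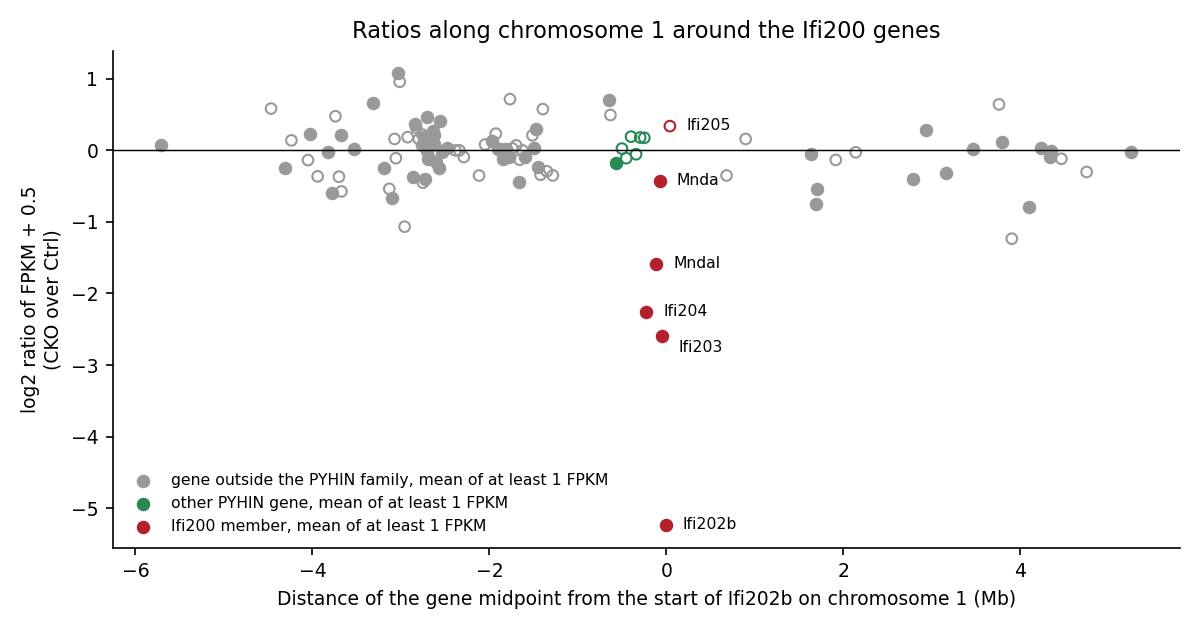
Log2(FPKM + 0.5) ratio of CKO over Ctrl (vertical axis) against the distance of each gene's midpoint from the start of Ifi202b in Mb (horizontal axis), with members in red, PYHIN genes outside the selection in green and genes outside the family in grey; open circles are genes with a mean under 1 FPKM. Members reach -5.24 (Ifi202b), whereas measured neighbours within 5 Mb lie between -0.79 and 1.08; the LOC rows have no position on the chromosome and are not plotted.

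The genes that sense and signal cytosolic DNA beside this family were at similar levels in both libraries. Of 35 genes listed, 31 were measured, 0 were higher and 1 was lower, with a median log2(FPKM + 0.5) ratio of -0.06. The lower one was Trim56, a ubiquitin ligase that acts on STING, at 15.98 FPKM in Ctrl and 10.04 FPKM in CKO, a log2(FPKM + 0.5) ratio of -0.64. Tmem173, which encodes STING, stood at 25.08 and 27.69 FPKM, Mb21d1, which encodes the DNA sensor cGAS, at 1.14 and 0.95 FPKM, and the transcription factor gene Irf7 at 12.68 and 12.23 FPKM. Nlrx1 (12.82 and 10.06 FPKM), a regulator of STING signalling, the kinase gene Ikbke (3.03 and 2.02 FPKM) and Polr3d (19.46 and 24.32 FPKM), an RNA polymerase III subunit, did not reach 1.5-fold on the log2(FPKM + 0.5) scale.

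The list of inflammasome genes, which holds Aim2 itself, showed 0 higher and 0 lower of 14 measured (21 listed), with a median log2(FPKM + 0.5) ratio of 0.02. Pycard, the adaptor that Aim2 recruits, stood at 3.98 FPKM in both libraries, and Casp1, the protease it activates, at 2.74 and 2.82 FPKM. Casp4, a caspase that senses bacterial lipopolysaccharide, had the highest ratio of the list, at 8.30 FPKM in Ctrl and 12.20 FPKM in CKO, a log2(FPKM + 0.5) ratio of 0.53. Txnip (189.57 and 225.28 FPKM), Nek7 (68.96 and 74.05 FPKM) and Il18r1 (17.40 and 19.68 FPKM) also did not reach 1.5-fold.

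Since interferons induce many Ifi200 genes, the receptors and signal carriers were compared next. All 19 listed were measured, 1 was higher and 0 lower, with a median log2(FPKM + 0.5) ratio of 0.03. The higher one was Irf8, a transcription factor gene active in myeloid cells, at 2.35 FPKM in Ctrl and 3.79 FPKM in CKO. Stat2 stood at 15.41 and 12.27 FPKM, Irf1 at 35.42 and 43.44 FPKM and the kinase gene Jak1 at 66.15 and 58.57 FPKM.

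Interferon-induced genes outside the family differed little between the libraries, though their summed log2 read ratio, -0.07 (-0.11 to -0.04), lay below 0. Of 40 listed, 34 were measured, 1 was higher and 0 lower, and the median log2(FPKM + 0.5) ratio was -0.04. The higher one was Ifi47, which encodes a GTPase, at 1.06 FPKM in Ctrl and 2.68 FPKM in CKO, a log2(FPKM + 0.5) ratio of 1.03. The lowest was -0.49: Oas3, which makes the activator of RNase L, stood at 5.41 and 3.70 FPKM, and Trim30a at 6.80 and 4.70 FPKM. Ddx58, which encodes the RNA sensor RIG-I, stood at 22.03 and 17.14 FPKM. The intervals of the log2 read ratio lay below 0 for Oas3, Trim30a, Ddx58, Herc6, Parp14, Rsad2 and Oas2. They lay above 0 for Ifi47, Ifi35 and Igtp.

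Proteins that p202 and p204 have been reported to bind are mostly regulators of transcription and the cell cycle. Of 20 such genes 16 were measured, 0 were higher and 0 lower by the same rule, and the median log2(FPKM + 0.5) ratio was 0.04. Myc had the highest ratio, at 72.55 FPKM in Ctrl and 102.16 FPKM in CKO, a log2(FPKM + 0.5) ratio of 0.49. Jun stood at 611.48 and 707.03 FPKM, Trp53bp1 at 14.83 and 12.16 FPKM and Rb1, the retinoblastoma gene, at 13.07 and 10.55 FPKM.

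**Figure D3:**
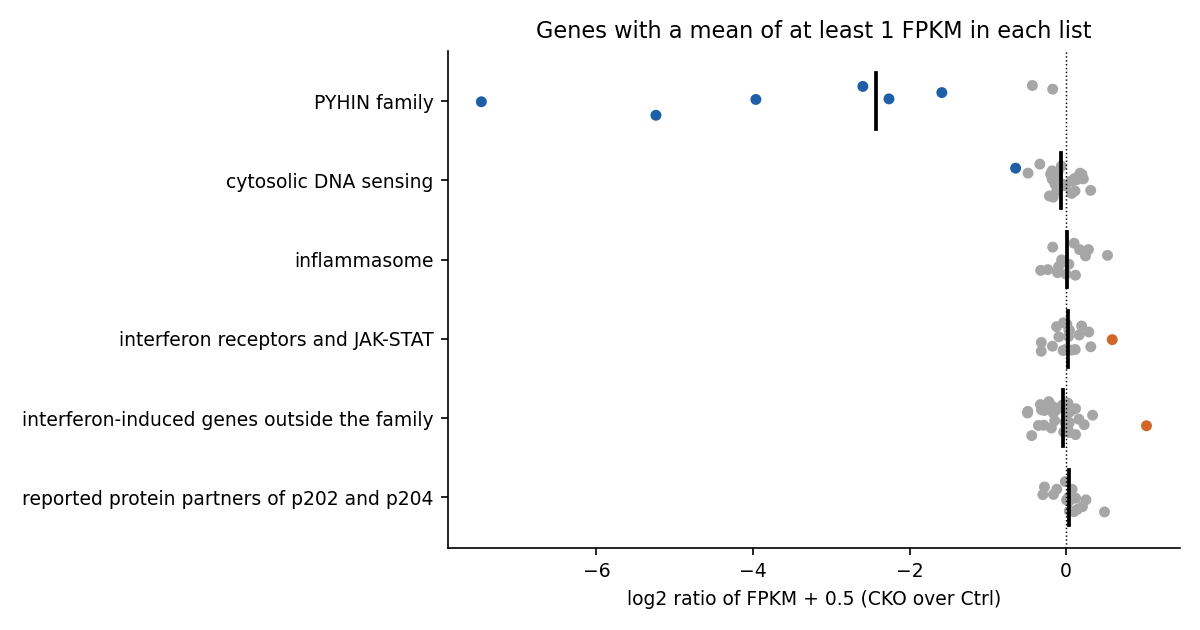
Log2(FPKM + 0.5) ratio of CKO over Ctrl for measured genes of the PYHIN family and the other 5 gene lists, 1 point per gene, with orange for higher, blue for lower, grey for neither and a black bar for the list's median. The PYHIN points extend to -7.47 with a median of -2.43, while the medians of the other lists lie between -0.06 and 0.04.

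Ifi200 genes are also expressed by leukocytes, so markers of the cell types a luminal sort could hold were read beside the members. All 12 luminal markers were measured, 1 was higher (Krt18, at 6606.79 FPKM in Ctrl and 10398.4 FPKM in CKO) and 0 lower, and 5 of the 12 had ratios below 0. Their summed level was 13990 FPKM in Ctrl and 18641 FPKM in CKO, a difference that lay mostly in Krt18. Of 17 myeloid markers 11 were measured, 4 were higher in CKO (Cd74, H2-Ab1, S100a8 and H2-Aa), 0 were lower and 9 had ratios above 0. Their summed level over the 16 in the table was 462.69 FPKM in Ctrl and 566.41 FPKM in CKO. Most of this sum was Cd14, at 400.62 and 467.65 FPKM, so it says little about the other myeloid markers. The 2 measured with ratios below 0 were C1qc, at 1.38 and 0.62 FPKM, and C1qb, at 1.69 and 1.34 FPKM. The intervals of both included no difference. The 5 that were not measured had few reads, and the intervals of all of them included no difference: Adgre1 had 10 reads in Ctrl and 5 in CKO, Fcer1g 9 and 5, Itgam 31 and 19, Ptprc 13 and 13, and Tyrobp 8 and 2. Lymphocyte markers summed to 4.01 FPKM in Ctrl and 5.48 FPKM in CKO over 13 genes. The 1 that was measured, Ltb, was higher, at 0.65 and 1.98 FPKM (9 and 26 reads), and the other 12 differed by no more than counting error, with Cd3e and Nkg7 at 0 reads in CKO against 5 and 1 in Ctrl. Basal markers summed to 103.06 and 196.06 FPKM, and 5 of the 7 measured were higher and 1, Trp63, lower in CKO. Of the measured markers, 0 of 4 for fibroblasts, 0 of 6 for endothelium and 0 of 1 for adipocytes were higher or lower. Among fibroblast markers below the mean of 1 FPKM, however, Pdgfra and Lum were lower in CKO beyond counting error. Pdgfra stood at 1.05 FPKM in Ctrl and 0.31 FPKM in CKO, 92 and 25 reads, with an interval of the log2 read ratio from -2.45 to -1.10. Lum stood at 1.16 and 0.38 FPKM, 30 and 9 reads, with an interval from -2.86 to -0.49. These 2 moved in the direction of the members, while the summed fibroblast level was 40.75 FPKM in Ctrl and 43.12 FPKM in CKO. The part of any of these cell types in the members' difference was not tested.

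The genes outside the family whose log2(FPKM + 0.5) ratio lay nearest to the members' median of -2.43, a likeness over 2 libraries only, were Wap, Hist1h4k, Calcb, Kcnh6 and Gm12873. Wap, which encodes a milk protein, stood at 6.90 FPKM in Ctrl and 0.82 FPKM in CKO, a log2(FPKM + 0.5) ratio of -2.49. The histone gene Hist1h4k stood at 6.35 and 0.83 FPKM, a log2(FPKM + 0.5) ratio of -2.36, and Calcb, a calcitonin gene-related peptide gene, at 17.07 and 3.94 FPKM. Kcnh6, which encodes a potassium channel, stood at 86.81 and 22.71 FPKM, and Gm12873 at 8.52 and 2 FPKM. None of these 5 lies on chromosome 1.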

How the data were processed

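Per the submitters' processing notes, reads were handled with HISAT, Bowtie2 and RSEM on mm10, with no versions given. The deposited FPKM of the authors are rounded to 2 decimals, with genes without reads listed at 0.01. Their products with length in kilobases added up to 999609 for Ctrl and 999909 for CKO. The deposited log2 fold changes, p-values and false discovery rates come from the authors' comparison of the 2 libraries. Library totals of about 12600000 reads in Ctrl and 11500000 in CKO were fitted to those p-values over 8592 genes (median absolute log10 difference 0.0875), and 193 of 198 genes without reads in 1 library gave whole reads within 0.01. Reads behind a value were FPKM times kilobases times these totals. Intervals (95%) are exact conditional binomial (Clopper-Pearson) for ratios and exact Poisson for levels, and with the floor of 3 reads they cover counting error only. No p-value was computed. Scripts (Python 3.11.15, SciPy 1.17.1) were tested on simulated data. Of the table's identifiers, 16796 matched RefSeq and 110 did not.

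Named genes were all family rows, neighbours past 1.5-fold with the nearest measured one on each side, up to 4 genes per list by the interval bound nearest to 0 plus set sensors and signal genes (1 of these is not reported here), and the 5 nearest in ratio. Other neighbours within 1 Mb, single cell type markers, and the rows on separate sequences were added after their values were seen. The members and lists were chosen with earlier results of these data known. Alternatives were other added values, minimum levels, folds, centring, sums and windows.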

Additional observations from a re-analysis of the deposited data

How the results depend on the processing

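The count of 5 members lower by 2-fold was 5 with 0.1 or 1 FPKM added and after centring on the median shift of -0.01, 6 with a minimum of 1 FPKM or none, and 4 from read ratios implied by the deposited p-values, which give none for LOC100044068 because its p-value is listed as 0. No result reversed. The summed log2 read ratio of -4.61 was -4.91 without Ifi203, -3.51 without LOC100044068, -5.11 without Mndal, -3.89 over all PYHIN rows and -4.92 from summed FPKM. Neighbours within 5 Mb gave 4 lower and 3 higher. With a mean of at least 5 FPKM, the PYHIN family had 2 lower, the interferon receptor list 0 higher and the other interferon-induced genes 0 higher. At 2-fold, DNA sensing had 0 lower and the interferon receptor list 0 higher, and the latter also had 0 higher with 1 FPKM added. Of the single log2(FPKM + 0.5) ratios, 3 moved by more than the counting error: Ifi203 from -2.60 to -3.25 and LOC102641031 from -3.96 to -6.81 with the deposited p-values, and LOC100044068 from -7.47 to -9.68 with 0.1 FPKM added. The alternative values lie inside the intervals of the read ratios and the main ones outside, since the added 0.5 FPKM draws low values together. No paired analysis was possible because each group has 1 library and the labels give no replicate numbers. The limits are the single library per group, reads estimated and not counted, family transcripts that share stretches of sequence, among which reads may have been divided, the version of the cluster in each library, which was not tested, and few reads for Mnda, Ifi205 and the family rows outside the selection. For Mnda, Ifi205 and the rows outside the selection other than Aim2, a 2-fold difference in at least 1 direction lies within counting error.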
